A study of Mus musculus with 8 samples.

Results

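A set of 10 transcripts of antioxidant defence, selenium use and iron storage was followed in platelets: the selenoproteins Sepw1, Gpx1 and Gpx4, the peroxiredoxins Prdx2 and Prdx6, the thioredoxin Txn1, the superoxide dismutase Sod1, the catalase Cat and the ferritin subunits Fth1 and Ftl1. They are 10 of the 43548 genes in the table, and all 10 were found by symbol. Sepw1 was chosen because all 4 TNFdARE values lay below all 4 control values, so its difference between genotypes is given as a description without a test. The other members were chosen by name, as enzymes and storage proteins of the same kind.

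RNA was taken from washed platelets of 4 TNFdARE mice and 4 healthy littermate control mice aged 8 to 12 weeks, with 2 females and 2 males per group by the labels and no drug treatment. The TNFdARE mice had been backcrossed to C57BL/6J, and the library names of the controls carry B6. TNFdARE mice lack AU-rich elements that limit the life and translation of the Tnf mRNA, so they carry excess TNF-α in the whole animal and develop chronic inflammation. The deletion is not restricted to platelets or megakaryocytes. Other parts of the labels speak of 3 mice per group and of male mice of 5.2 months whose humeri were taken, and no source other than the label gives a mouse's sex. All 8 samples carry the same batch date.

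Selenoproteins hold the amino acid selenocysteine, which is inserted at a UGA codon that elsewhere ends translation, and their synthesis depends on the supply of selenium. Glutathione peroxidases, peroxiredoxins and catalase remove peroxides, superoxide dismutases turn superoxide into hydrogen peroxide, and thioredoxin returns oxidised proteins to their reduced state. Ferritin is a hollow shell of heavy and light chains that stores iron in a form that does not feed oxidant chemistry. Its translation is held back by iron regulatory proteins, which bind a hairpin in the 5′ untranslated region of the ferritin mRNAs. Platelets have no nucleus and carry mRNA from the megakaryocyte, and red cells are rich in the same peroxide-removing enzymes.

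The selenoprotein genes have the recoding codon and the other members lack it, and it is shown here within the GENCODE transcripts of mm10, with the TGA in capitals. It is printed for Sepw1, Gpx1 and Gpx4, the selenoprotein members, and for Sep15, a further selenoprotein whose mean was above 1 FPKM.
Sepw1, codon 13: tattgtggagctTGAggctataagcccaag
Gpx1, codon 47 of the form with 201 codons: gtcgcgtctctcTGAggcaccacgatccgg
Gpx4, codon 73 of the form with 197 codons: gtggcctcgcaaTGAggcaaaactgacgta
Sep15, codon 93: gaagtctgcggaTGAaaattggggaggttc
The codons lie at chr7:15920464-15920466 on the minus strand for Sepw1, chr9:108339451-108339453 on the plus strand for Gpx1, chr10:80054737-80054739 on the plus strand for Gpx4 and chr3:144590645-144590647 on the plus strand for Sep15, each in coding exon sequence. The Gpx4 codon is number 129, 73 or 33 in the annotated forms of 253, 197 and 157 codons, which start at different places. The 2 other annotated coding forms of Gpx1, of 144 and 145 codons, have no TGA in frame. No annotated coding transcript of Prdx2, Prdx6, Txn1, Sod1, Cat, Fth1 or Ftl1 had a TGA in frame before its stop.

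The ferritin transcripts share a different element, the loop of the iron-responsive hairpin in their 5′ untranslated regions. It is shown with the bulged C and the CAGTG of the loop in capitals.
Fth1: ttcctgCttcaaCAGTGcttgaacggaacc
Ftl1: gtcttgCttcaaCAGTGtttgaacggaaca
The windows lie at chr19:9982732-9982761 on the plus strand and chr7:45459778-45459807 on the minus strand. A C followed after 5 bases by CAGTG and 1 further base, on the sense strand, was present in an annotated 5′ untranslated region of 12.24% of 20915 genes, so the match is a description and not a mapped site. The letters TGACNNNGC, the core of the antioxidant response element, were searched on both strands of the RefSeq windows that run from 250 bases before to 50 bases after each start. They were present for Sod1 and in no window of the 8 other members that had one, against 12.392% of all 32851 windows. Prdx6 is named only.

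The libraries limit what can be compared. All 21 platelet genes examined, among them Pf4, Itga2b and Gp9, reached a mean of 1 FPKM, and 19 were above 0 in all 8 mice. The number of genes above 0 ran from 1479 to 2742 in the control mice and from 818 to 4917 in the TNFdARE mice, with TNFdARE mouse 1 lowest and TNFdARE mouse 3 highest. The entry AY036118 took 33.7% to 67.7% of the summed FPKM. Summed FPKM of 4 globin genes ran from 733.8 to 2173 in controls and was 6802, 1093, 2896 and 14560 in TNFdARE mice 1 to 4. In bulk RNA, fewer cells of a type and less RNA per cell cannot be told apart. The number of fragments per library is unknown, so a 0 is given as listed and not as absence.

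Among the 10 members, Fth1 was the most abundant and Txn1 the least. With AY036118 left out, Fth1 ranked between 7 and 18 among all genes in every mouse. Ferritin made up 87.4% to 89.3% of the members' summed FPKM in controls and 69.4%, 88.9%, 87.1% and 82.4% in TNFdARE mice 1 to 4. Txn1, the cytosolic thioredoxin, was listed at 0 in 7 of the 8 mice and at 0.350 FPKM in TNFdARE mouse 3. The members together held 1.95% to 2.66% of the FPKM outside AY036118 in controls, and 1.44%, 2.09%, 2.03% and 2.18% in TNFdARE mice 1 to 4. TNFdARE mouse 1 had the lowest share and listed 5 of the 10 members at 0, while TNFdARE mouse 3 listed none at 0.

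**Figure D1:**
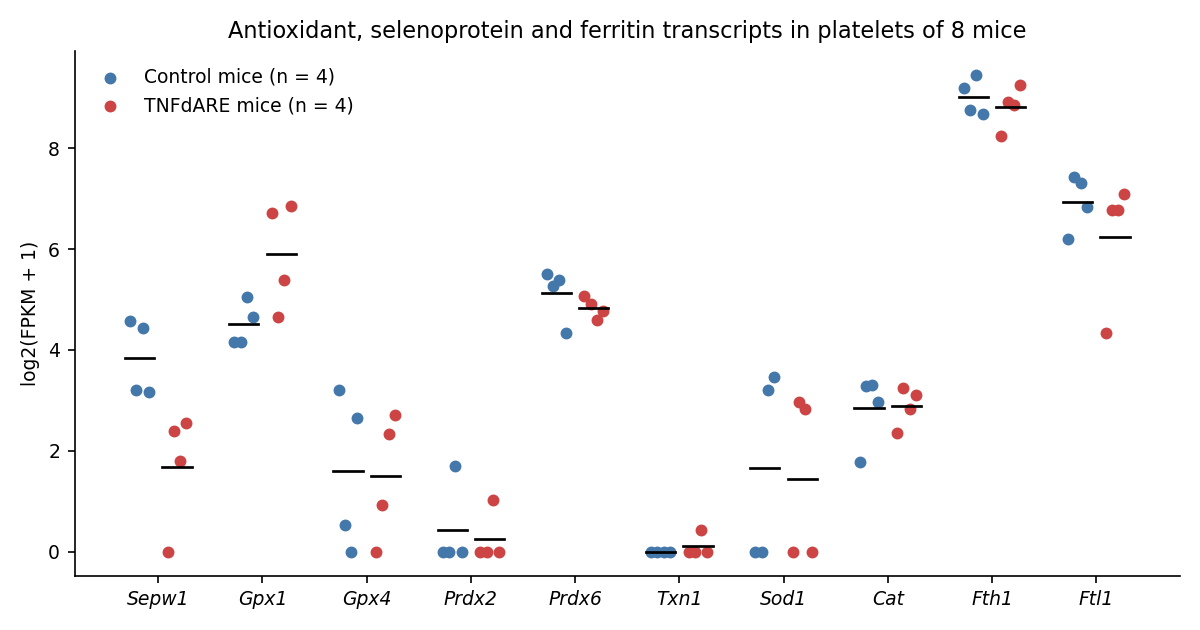
Level of each of the 10 members in each mouse on the log2(FPKM + 1) scale, with control mice in blue, TNFdARE mice in red and bars at the group means (n = 4 each). The groups are apart for Sepw1 alone, Gpx1 is higher in 3 of the 4 TNFdARE mice than in any control, and Prdx2 and Txn1 lie at or near 0.

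Sepw1 encodes selenoprotein W, a small thioredoxin-fold selenoprotein, now named Selenow, at chr7:15917208-15922402 on the minus strand of mm10. Its level was 22.8, 8.22, 20.5 and 7.99 FPKM in control mice 1 to 4 and was listed at 0, 4.27, 2.48 and 4.83 FPKM in TNFdARE mice 1 to 4. The lowest control value, 7.99, and the highest TNFdARE value, 4.83, stand on either side of the gap by which the gene was picked. The controls themselves fell into a higher pair, mouse 1, a female, and mouse 3, a male, and a lower pair, mice 2 and 4. On the log2(FPKM + 1) scale the difference of TNFdARE minus control was -2.16, or -1.86 relative to the median of all genes tested. Such a gap was present for 38 of the 1534 genes tested, or 2.48%, and the opposite gap for 13, or 0.847%. Since the rule used this contrast, nothing is read from the difference. No near-identical copy of Sepw1 was found in the transcript set.

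The genes whose order over the 8 mice was most like that of Sepw1, among 582 genes whose mean reached 5 FPKM, were Gm15427, Parvb and Pld2. Spearman's rho with Sepw1 was 0.929 for Gm15427, 0.929 for Parvb, an adaptor at integrin adhesions, and 0.898 for Pld2, a phospholipase D. Parvb was at 192, 125, 88.7 and 94.2 FPKM in controls and at 27.9, 80.6, 62.4 and 87.0 FPKM in TNFdARE mice. Pld2 was at 19.6, 6.54, 9.50 and 5.79 FPKM in controls and at 0, 2.81, 2.08 and 0 FPKM in TNFdARE mice. Control mouse 1 was the highest for both. A gene picked for its likeness to Sepw1 is bound to separate the groups much as Sepw1 does, so the separation is a description and no p is given.

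Gpx1 encodes the cytosolic glutathione peroxidase, the main selenoenzyme of red cells, at chr9:108338903-108340343 on the plus strand. Its values were higher, not lower, in most TNFdARE mice. Its level was 16.9, 16.9, 32.1 and 24.3 FPKM in control mice 1 to 4 and 104, 24.3, 41.0 and 115 FPKM in TNFdARE mice 1 to 4. TNFdARE mice 1, 3 and 4 were above every control, and TNFdARE mouse 2 lay within the control range. The mean was 71.2 ± 45.3 FPKM (SD, n = 4) in TNFdARE and 22.6 ± 7.27 FPKM (SD, n = 4) in control mice. The log2 difference was 1.40 ± 0.57 (SE; 95% interval 0.16 to 2.63), or 1.69 relative to the median of all genes tested. The unadjusted limma p was 0.029, the Benjamini-Hochberg adjusted limma p was 0.86, and the two-sided exact permutation p was 0.057. Gpx1 thus did not pass the adjusted test, and the smallest exact p that 4 against 4 allows is 0.029.

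Gpx1 was high where red cell transcripts were high. The 4 mice with the highest Gpx1 were, in order, TNFdARE mice 4, 1 and 3 and control mouse 3, and the 4 highest globin sums came in the same order. Per 1000 FPKM of globin, Gpx1 was 14.8 to 29.6 in controls and 15.3, 22.2, 14.2 and 7.92 in TNFdARE mice. Any gene that rises less than globin falls on this scale, so nothing is read from it on the source of Gpx1. Of the 22 erythroid markers, 20 were in the table and 8 were tested, with a median log2 difference of 1.94. Of these 8, 4 are globins, 7 were higher and 6 of them had an unadjusted limma p under 0.05, against 4.5% of all genes tested, and none passed adjustment (smallest adjusted limma p 0.86). Mkrn1 stood at -0.05, with 19.1 to 32.5 FPKM over all mice. The erythroid markers summed to 786.3 to 2226 FPKM in controls and 1137 to 14700 FPKM in TNFdARE mice. Rhag, Rhd, Kel and Klf1 were listed at 0 in all 8 mice, while Alas2, the red cell enzyme of haem synthesis, was at 7.18 to 21.0 FPKM in controls and at 11.9 to 109 FPKM in TNFdARE mice, highest in mice 1 and 4. TNFdARE mice 1 and 4 are the highest for both Gpx1 and globin, so the difference had to shrink without them, and it was then 0.52 on the log2 scale, with an unadjusted limma p no longer under 0.05. The part of red cell RNA in the Gpx1 difference was not tested. Of the 21 platelet genes, 17 were lower and 4 higher, and of all 1534 genes tested 966 were lower. The median log2 difference was -0.39 for the platelet genes and -0.30 for all genes tested. Of 18 leukocyte markers, 13 were listed at 0 in all 8 mice and 2 were tested, Lyz2 at -0.935 and S100a9 at 0.874. No platelet or leukocyte gene had an unadjusted limma p under 0.05.

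**Figure D2:**
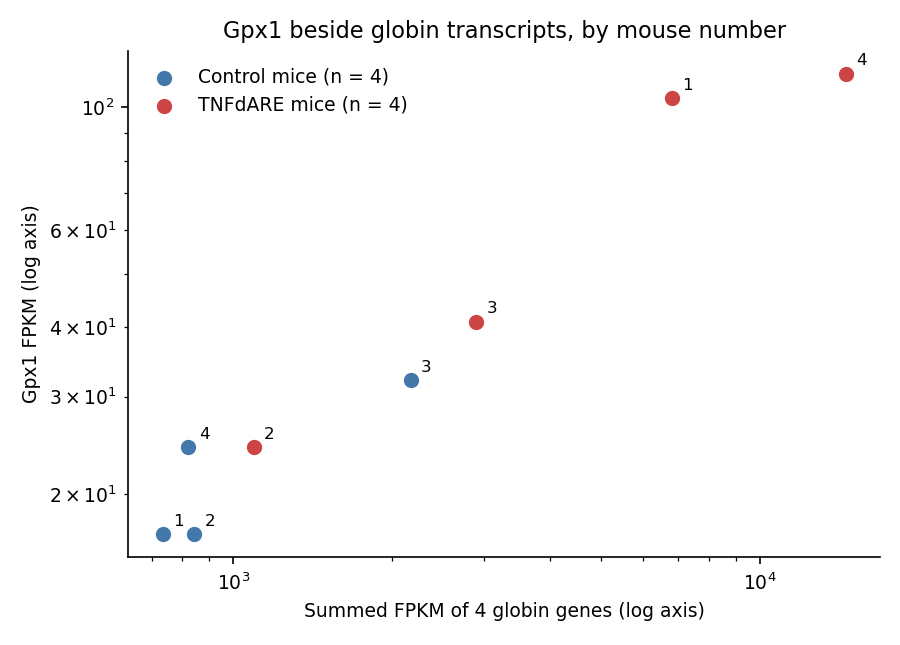
Gpx1 FPKM against the summed FPKM of 4 globin genes in each mouse, both on log axes, with the mouse number beside each point (control blue, TNFdARE red, n = 4 each). TNFdARE mice 1 and 4, at 104 and 115 FPKM of Gpx1, also have the highest globin sums, 6802 and 14560, and TNFdARE mouse 2 lies among the controls.

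The unadjusted call for Gpx1 did not hold when control mouse 1 or 2, or TNFdARE mouse 1 or 4, was left out, where the log2 difference was 1.28, 1.28, 1.13 and 1.08. It held in 13 of 20 alternative settings, and the direction was upward in all 20.

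Gpx4 encodes the phospholipid hydroperoxide glutathione peroxidase, the selenoenzyme that clears lipid peroxides in membranes, at chr10:80047166-80056439 on the plus strand. It was at 8.26, 0.439, 0 and 5.25 FPKM in controls and at 0, 0.901, 4.06 and 5.52 FPKM in TNFdARE mice. Each group had values from 0 to over 5 FPKM and the ranges overlapped almost fully. The log2 difference was -0.10 ± 0.91 (SE; 95% interval -2.08 to 1.87), and the exact permutation p was 0.94. The interval is wide, so a sizeable change in either direction was not detectable with these libraries. Gpx4 has 2 near-identical copies in the annotation that are not used here, and how reads shared with them were counted is not given in the sources used here.

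The ratio of Gpx1 to Sepw1, both selenoproteins, was 0.744, 2.05, 1.57 and 3.04 in controls and 5.69, 16.5 and 23.9 in TNFdARE mice 2, 3 and 4. It is not defined in TNFdARE mouse 1, where Sepw1 was listed at 0. The 3 defined TNFdARE ratios lay above every control ratio. This ratio contains Sepw1, whose choice pushes it up in TNFdARE mice, so the separation is a description and carries no test. A ratio within a library does not depend on how that library was scaled, and it cannot say which of the pair differed.

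Prdx6, a peroxiredoxin that also acts on oxidised phospholipids, lies at chr1:161240112-161251219 on the minus strand and was the most even of the abundant members in TNFdARE mice. It was at 44.7, 37.4, 40.6 and 19.3 FPKM in controls and at 32.7, 29.2, 23.3 and 26.3 FPKM in TNFdARE mice. All 4 TNFdARE values fell within the control range, but only because control mouse 4 was low. Control mice 1, 2 and 3 lay above every TNFdARE value. The log2 difference was -0.28 ± 0.47 (SE; 95% interval -1.30 to 0.74), or 0.01 relative to the median of all genes, and the exact permutation p was 0.34. Without control mouse 4 the log2 difference was -0.54. In controls the mean level of Prdx6, 35.5 FPKM, was above that of Gpx1, 22.6 FPKM, and in TNFdARE mice it was below, 27.9 against 71.2 FPKM. The ratio of Gpx1 to Prdx6 was 0.379, 0.451, 0.791 and 1.26 in controls and 3.19, 0.833, 1.76 and 4.38 in TNFdARE mice. Here again TNFdARE mouse 2 alone overlapped the controls, with an exact permutation p of 0.057 and an adjusted p of 0.17 over the 3 ratios compared.

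Prdx2, the abundant peroxiredoxin of red cells, at chr8:84969587-84974834 on the plus strand, was listed at 0 in 6 of the 8 mice. It was at 2.25 FPKM in control mouse 3 and at 1.03 FPKM in TNFdARE mouse 3. It stayed at 0 in TNFdARE mice 1 and 4, where globin and Gpx1 were highest. Its mean was under 1 FPKM, so it was not tested, and its locus overlaps Junb and Rnaseh2a in the annotation. Its copy Tdpx-ps1, 96.3% identical over 597 bases, was at 1.56 and 3.24 FPKM in TNFdARE mice 2 and 3 and listed at 0 in the others, and with it added the log2 difference was 0.51 (exact permutation p = 0.71). Txn1, at chr4:57943373-57956411 on the minus strand, was likewise below the filter. Txn1 and Prdx2 were both above 0 in TNFdARE mouse 3, the library with the most genes above 0.

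Sod1, the cytosolic copper and zinc superoxide dismutase, at chr16:90220754-90226329 on the plus strand, was either clearly present or listed at 0. It was at 0, 0, 8.21 and 10.1 FPKM in controls and at 0, 6.86, 6.08 and 0 FPKM in TNFdARE mice. Each group had 2 mice at 0 and 2 between 6.08 and 10.1 FPKM. The log2 difference was -0.22 ± 1.06 (SE; 95% interval -2.50 to 2.07), with an exact permutation p of 0.66. The mice at 0 include control mouse 1 and TNFdARE mice 1 and 4, the 3 libraries with the fewest genes above 0. Gm8566, a copy 97.8% identical over 465 bases, was at 44.1 FPKM in control mouse 3, above Sod1 itself there, so the Sod1 values are uncertain. With the copy added, the log2 difference was -0.62 (exact permutation p = 0.83).

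Cat, which splits hydrogen peroxide, lies at chr2:103453849-103485160 on the minus strand and was above 0 in every mouse. It was at 2.45, 8.82, 8.93 and 6.84 FPKM in controls and at 4.12, 8.50, 6.10 and 7.61 FPKM in TNFdARE mice. All 4 TNFdARE values lay between the lowest and highest controls. The mean was 6.58 ± 1.92 FPKM (SD, n = 4) in TNFdARE and 6.76 ± 3.03 FPKM (SD, n = 4) in control mice, with a log2 difference of 0.04 ± 0.61 (SE; 95% interval -1.26 to 1.35) and an exact permutation p of 0.91. Catalase is also a red cell enzyme, and its transcript was at 4.12 and 7.61 FPKM in TNFdARE mice 1 and 4. The ratio of Gpx1 to Cat was 6.92, 1.91, 3.60 and 3.55 in controls and 25.3, 2.86, 6.72 and 15.1 in TNFdARE mice, and the groups overlapped, with an exact permutation p of 0.20 and an adjusted p of 0.30.

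Fth1, the ferritin heavy chain with the ferroxidase activity, at chr19:9980598-9985098 on the plus strand, was at 586, 431, 702 and 408 FPKM in controls and at 301, 482, 462 and 610 FPKM in TNFdARE mice. TNFdARE mouse 1 was below every control and the other three lay within the control range. The mean was 463.5 ± 126.9 FPKM (SD, n = 4) in TNFdARE and 532.0 ± 138.3 FPKM (SD, n = 4) in control mice. The log2 difference was -0.21 ± 0.34 (SE; 95% interval -0.94 to 0.53), or 0.09 relative to the median of all genes, and the exact permutation p was 0.54. Fth1 had the smallest standard error among the members tested.

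Ftl1, the ferritin light chain, at chr7:45457944-45459884 on the minus strand, was at 72.2, 171, 157 and 113 FPKM in controls and at 19.3, 109, 108 and 136 FPKM in TNFdARE mice. TNFdARE mouse 1 was again the lowest of all 8 mice and the other three overlapped the controls. The log2 difference was -0.69 ± 0.60 (SE; 95% interval -1.98 to 0.59), or -0.40 relative to the median of all genes, with an exact permutation p of 0.43. Without TNFdARE mouse 1 it was -0.06. By sex, the female values were 72.2 and 113 FPKM in controls and 109 and 136 FPKM in TNFdARE mice, and the male values were 171 and 157 FPKM in controls and 19.3 and 108 FPKM in TNFdARE mice. The female values of the groups interleaved, while both male TNFdARE values lay below both male control values. The limma test of the interaction between genotype and sex gave an unadjusted p of 0.066 and an adjusted p of 0.92. It was the smallest interaction p among the 8 members tested.

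The ratio of Fth1 to Ftl1 was 8.12, 2.52, 4.46 and 3.60 in controls and 15.6, 4.42, 4.29 and 4.47 in TNFdARE mice. Heavy chain transcript exceeded light chain transcript in every mouse. The highest ratio in each group was in mouse 1, and the log2 difference of 0.50 had an exact permutation p of 0.49. Copies of the light chain gene were also above 0, and whether their reads came from Ftl1 was not tested. Ftl1-ps1, 99.6% identical to Ftl1 over 910 bases, was at 83.4 to 243 FPKM, above Ftl1 itself in 7 of the 8 mice. With the 5 copies in the table added, Ftl1 was at 241, 315, 430 and 254 FPKM in controls and at 104, 267, 288 and 404 FPKM in TNFdARE mice, with a log2 difference of -0.34 and an exact permutation p of 0.60. With its copy Gm6977 added, Fth1 had a log2 difference of -0.23 and an exact permutation p of 0.46. The individual levels of Ftl1 and Fth1 are therefore less certain than that of Gpx1, for which no such copy was found.

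**Figure D3:**
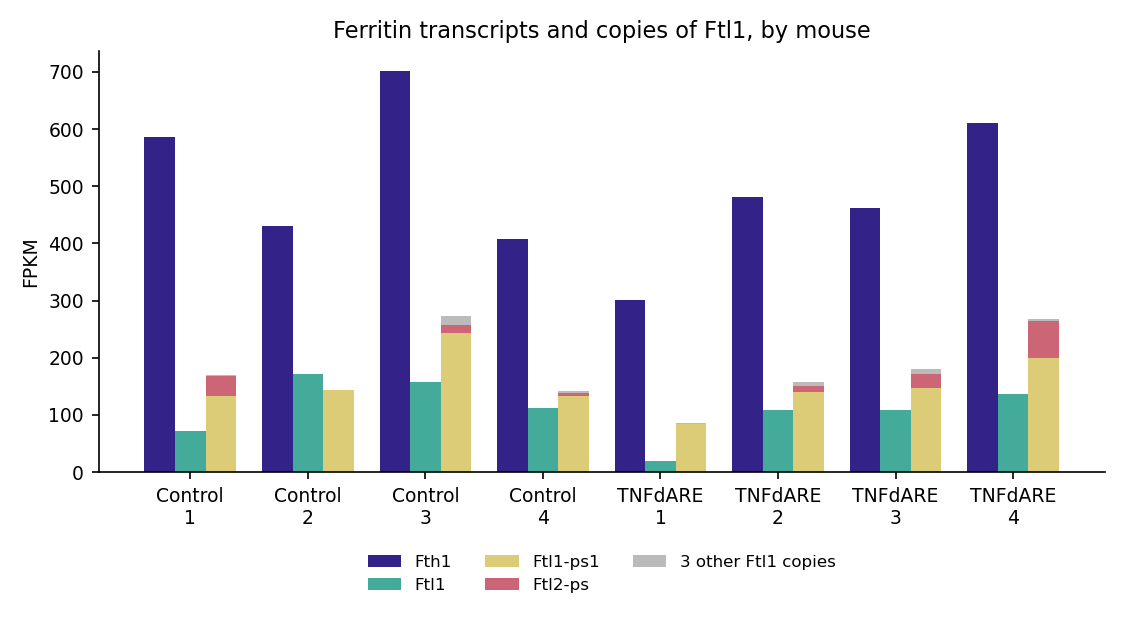
FPKM in each mouse of Fth1, of Ftl1 and, stacked in a bar of their own, of the copies of Ftl1 that are in the table. The Fth1 bar is the tallest in every mouse, from 301 to 702 FPKM, Ftl1 is lowest in TNFdARE mouse 1 at 19.3 FPKM, and Ftl1-ps1 makes up most of each stacked bar.

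Across the group, 8 of the 10 members reached a mean of 1 FPKM and entered the test. Sepw1 was chosen on this contrast and is not counted. Of the other 7, Gpx1 alone had an unadjusted limma p under 0.05, as did 69 of all 1534 genes tested, or 4.5%. None of the 1534 genes tested passed an adjusted p of 0.05 (0.0%, smallest adjusted limma p 0.86). The median log2 difference was -0.21 over these 7 and -0.30 over all genes tested, and 6 of the 7 lay above the median of all genes. That order turned in 6 of the 20 alternatives: a pseudocount of 5, no filter, quantile normalization, sample weights, and without control mouse 2 or TNFdARE mouse 4. With no filter the medians were -0.21 over the 7 members and 0.01 over all genes.

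**Figure D4:**
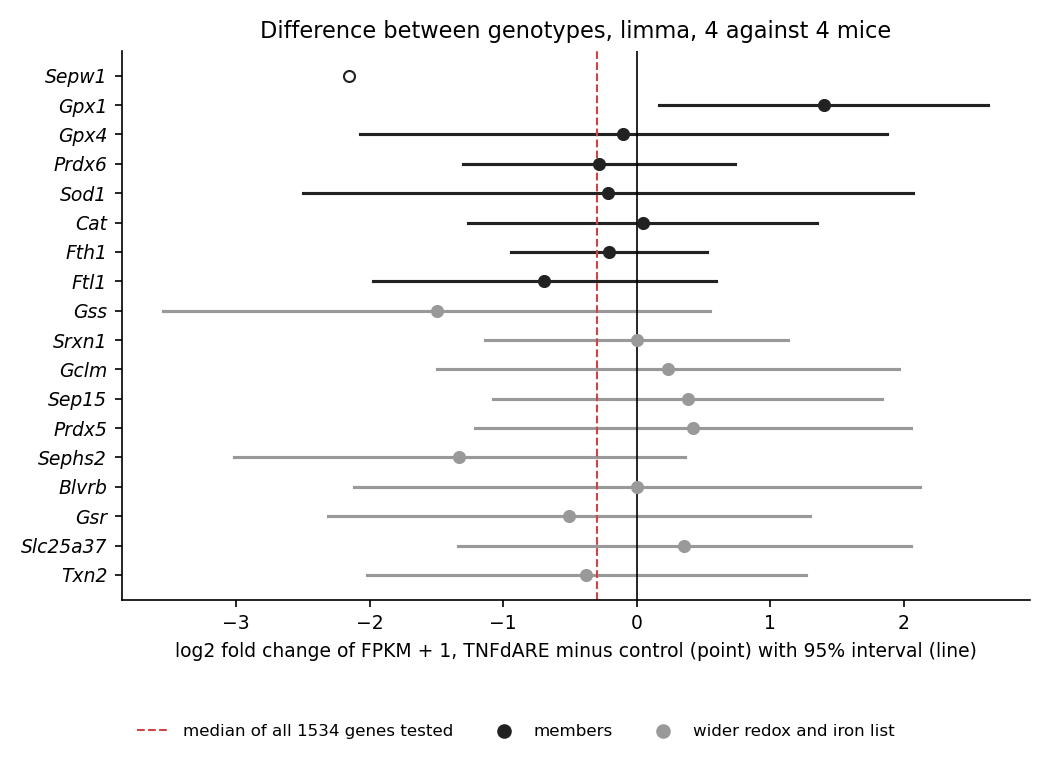
Log2 difference in FPKM + 1 of TNFdARE minus control with its 95% interval for the tested members (black; Sepw1, chosen on this contrast, as an open circle without an interval) and 10 genes of the wider redox and iron list (grey), with the median of all 1534 genes as a dashed line. The interval of Gpx1, 0.16 to 2.63, lies above 0, and the other intervals drawn span it.

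A wider list of 78 genes was drawn up for the rest of these pathways: other peroxidases, thioredoxins, glutathione synthesis and transfer, the remaining selenoproteins with the selenocysteine machinery, and iron transport. The table held 77 of them. In all 8 mice 32 were listed at 0 and 4 were above 0, 45 were above 0 in some mouse, and 8 were above 0 in TNFdARE mouse 3 alone. A mean of 1 FPKM was reached by 12, with 6 higher and 6 lower, none with an unadjusted limma p under 0.05 and a median log2 difference of 0.00 against -0.30 for all genes tested. That order turned in 4 of the 20 alternatives: no filter, sample weights (-0.08 against -0.01), without TNFdARE mouse 2 (-0.42 against -0.41) and without TNFdARE mice 1 and 4 (-0.27 against 0.01).

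In the glutathione branch, Gss, glutathione synthetase, was at 52.5, 38.3, 8.00 and 20.8 FPKM in controls and at 0, 15.9, 24.5 and 14 FPKM in TNFdARE mice, with a log2 difference of -1.50 ± 0.95 (SE) and an adjusted limma p of 0.86. Without TNFdARE mouse 1 the log2 difference was -0.44. The 2 highest values were in controls, but the groups overlapped. Gclm, the modifier subunit of the rate-limiting ligase, was at 43.2, 16.3, 4.35 and 2.11 FPKM in controls and at 21.6, 8.07, 7.08 and 13.7 FPKM in TNFdARE mice. The controls spanned the whole TNFdARE range. Gsr, which regenerates reduced glutathione for Gpx1 and Gpx4, was at 0.0519 to 6.78 FPKM in controls and at 0 to 4.22 FPKM in TNFdARE mice.

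The peroxiredoxin branch was carried by Prdx6, Prdx5 and Srxn1. Prdx5 was at 4.26, 6.95, 4.69 and 5.44 FPKM in controls and at 36.8, 2.65, 3.13 and 7.62 FPKM in TNFdARE mice, so the TNFdARE mice lay both above and below the narrow control range. Srxn1, sulfiredoxin, which repairs overoxidised peroxiredoxins, was at 14.2, 15.5, 18.4 and 11.2 FPKM in controls and at 13.0, 27.3, 10.7 and 11.7 FPKM in TNFdARE mice. TNFdARE mouse 2 stood high and the other three lay at or near the control range. Its log2 difference was 0.00 ± 0.53 (SE). Txn2, the mitochondrial thioredoxin, was at 0 to 4.54 FPKM in controls and at 0 to 2.09 FPKM in TNFdARE mice.

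Among the remaining selenoproteins, Sep15 and Sephs2 had the highest means. Sep15, now named Selenof, a selenoprotein of the endoplasmic reticulum, was at 18.0, 5.77, 7.37 and 7.82 FPKM in controls and at 35.4, 5.34, 6.41 and 15.0 FPKM in TNFdARE mice. TNFdARE mice 1 and 4 were the high ones of their group, as for Gpx1, and control mouse 1 also stood high. Its log2 difference was 0.38 ± 0.68 (SE; adjusted limma p 0.90). Sephs2, which makes the selenium donor for selenocysteine and is itself a selenoprotein, was at 7.68, 3.17, 3.40 and 4.09 FPKM in controls and at 0, 1.67, 6.59 and 0 FPKM in TNFdARE mice. TNFdARE mice 1 and 4 were listed at 0 for Sephs2, and the log2 difference was -1.33 ± 0.78 (SE; adjusted limma p 0.86).

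Of the haem and iron genes, Blvrb, a flavin and biliverdin reductase, was at 0, 0, 2.97 and 7.58 FPKM in controls and at 0, 10.1, 2.09 and 0 FPKM in TNFdARE mice. Slc25a37, the mitochondrial iron importer mitoferrin, was at 2.95, 0.564, 0.596 and 0 FPKM in controls and at 2.08, 0, 0.414 and 5.09 FPKM in TNFdARE mice. In each gene 1 TNFdARE mouse was above every control, mouse 2 for Blvrb and mouse 4 for Slc25a37, the rest overlapped, and the log2 differences were 0.00 ± 0.98 and 0.36 ± 0.78 (SE).

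The size of the Gpx1 difference was followed through 20 alternative settings, where its log2 difference ran from 0.52 to 1.81. The lowest value came from leaving out TNFdARE mice 1 and 4. The log2 difference of Sepw1 ran from -3.12 with a pseudocount of 0.1 to -1.29 with a pseudocount of 5, and its sign says nothing of stability, because the choice of the gene fixed it.

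**Figure D5:**
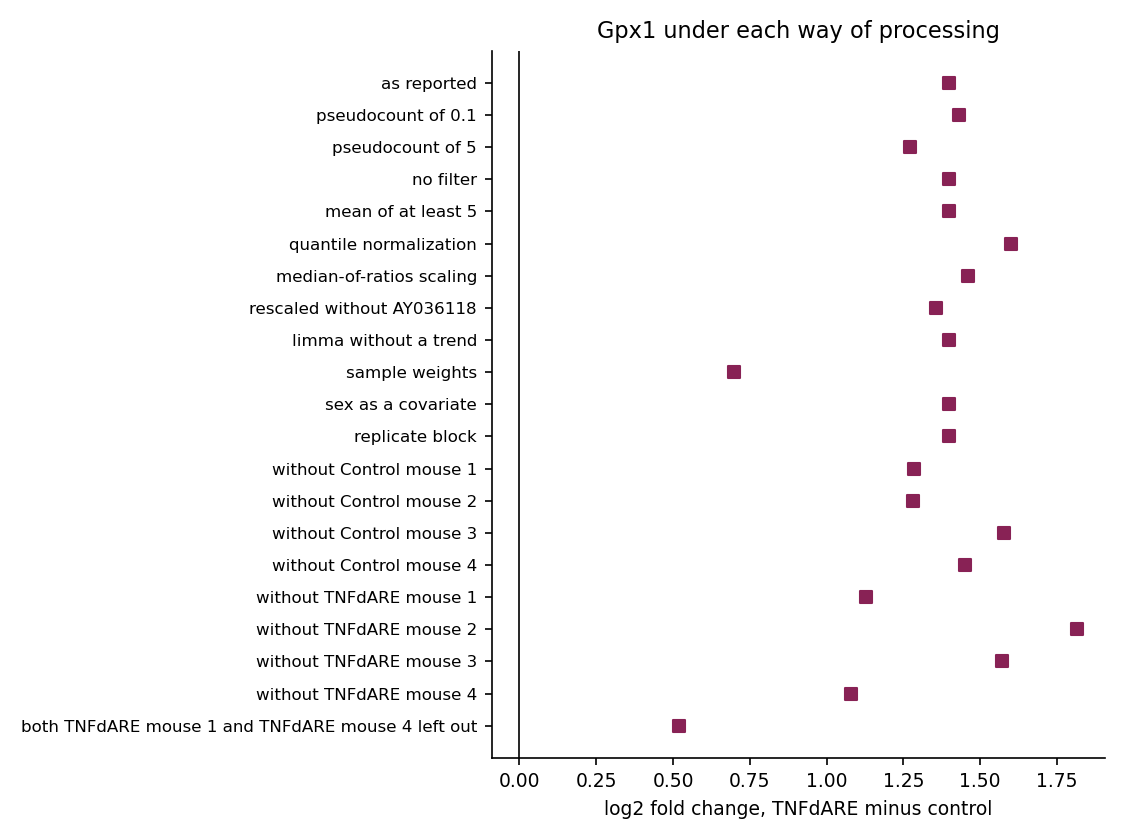
Log2 difference of TNFdARE minus control for Gpx1 as reported and under each of 20 alternatives, named on the left, with a line at 0. The values lie between 0.52, when TNFdARE mice 1 and 4 are left out, and 1.81.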

How the data were processed

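Platelet RNA from 4 TNFdARE and 4 littermate control mice was sequenced as 150 bp reads. The deposited table gives each gene's level in each mouse, read here as FPKM. That unit is inferred: the study's methods for other data refer to the bulk values as CPM, but the columns do not sum to the total CPM would give. The submitters' processing notes name Cufflinks and mm10, and the references the study cites describe alignment with GSNAP. Versions, annotation and the handling of multi-mapping reads are not given in the sources used here. The FPKM columns sum to different totals, 46047 to 99470, and low values gave no step of 1 fragment, so depth is unknown and no count model was used.

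The 1534 of 43548 genes whose mean reached 1 FPKM were compared on log2(FPKM + 1) in limma 3.58.1 (R 4.3.3) with an empirical Bayes trend and Benjamini-Hochberg adjustment over all of them. Fold changes on this scale understate the change of low genes. Single values were compared by two-sided exact permutation in scipy 1.17.1. The labels name separate mice. Copies were transcripts of other genes at least 95% identical over at least 150 bases (BLAST 2.17.0). Sep15 was matched by Ensembl identifier because the table holds its symbol as a spreadsheet date.

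The members and lists were chosen with earlier results of these data known. Named were all 10 members, genes of the wider list with a mean of at least 1 that had an unadjusted p under 0.05 or were among the 10 highest means, the 3 genes most like Sepw1 by Spearman's rho, and markers where set beside a result. The fit was also run on simulated data with 200 genes changed by 3 on the log2 scale, and nothing is read from that run here. Alternatives numbered 12 planned and 2 added after the data were seen.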

Additional observations from a re-analysis of the deposited data

Results flagged for a closer look

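A mouse far from the other three of its group was found in 6 of the 39 groups of 4 examined. Chance flags about 1 in 20 groups of normally distributed values, and its rate for FPKM values was not tested. Of the 6, 3 have all other mice of the group at 0, which gives the largest possible value by construction. The value given is the gap from that mouse to its nearest neighbour as a share of the group's range. It was 0.862 for Srxn1 in TNFdARE mouse 2, 0.833 for Sep15 in control mouse 1 and 0.855 for Prdx5 in TNFdARE mouse 1. For Prdx2 it was 1.0 in control mouse 3 and 1.0 in TNFdARE mouse 3, and for Txn1 it was 1.0 in TNFdARE mouse 3.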

How the results depend on the processing

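The small groups, unknown depth and libraries with 818 to 4917 genes above 0 limit these results. Gpx1 kept a positive log2 difference in every alternative run, and Prdx6, Fth1, Ftl1, Gss and Sephs2 a negative one, but not its size: without TNFdARE mouse 1 it was -0.06 for Ftl1 and -0.014 for Fth1, and with sample weights -0.22 for Gss and -0.10 for Sephs2. The number of genes with an unadjusted limma p under 0.05, 69 as reported, was 36 with a mean of at least 5 (fewer genes tested) and 111 with sample weights; no gene passed adjustment in any setting. Among the 7 tested members other than Sepw1 it was 1, Gpx1, and 0 with limma without a trend, with sample weights and without TNFdARE mice 1 and 4 (an alternative added after the data were seen), and 0 to 1 with each mouse left out; with Sepw1 included these are 2, 1 and 1 to 2, where the choice of Sepw1 on this contrast fixes its own part, so nothing is read from them. For the wider list it was 0, and 0 to 1 with each mouse left out. Mice with the same replicate number were not alike in their deviations from the group means (correlations 0.06, -0.062, 0.024 and -0.067). The library names of control mouse 1 and TNFdARE mouse 1 share a number. Those of control mouse 4 and TNFdARE mouse 3 share another, and their correlation was 0.042. What these numbers mean is not given, and no fit paired mice by them. With the replicate block, Gpx1 stood at 1.40 and 64 genes were called.

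The following log2 differences changed sign, and the cause was not tested. Blvrb was -0.021 with a pseudocount of 0.1 and -0.02 with median-of-ratios scaling. Srxn1 was 0.01 with a pseudocount of 5, 0.20 with quantile normalization, 0.059 with median-of-ratios scaling and 0.086 with sample weights. With sample weights Gpx4 was 0.17, Sod1 0.47, Cat -0.018, Sep15 -0.23, Prdx5 -0.56, Gsr 0.27 and Slc25a37 -0.05. Without TNFdARE mice 1 and 4, Gpx4 was 0.038, Sod1 1.23, Srxn1 0.22, Gclm -0.31, Sep15 -0.53, Prdx5 -0.69, Gsr 0.33, Slc25a37 -0.58 and Txn2 0.34. With each mouse left out in turn, the range was -0.63 to 0.44 for Gpx4, -0.77 to 0.38 for Sod1, -0.31 to 0.22 for Cat, -0.29 to 0.14 for Srxn1, -0.36 to 0.92 for Gclm, -0.12 to 0.72 for Sep15, -0.30 to 0.82 for Prdx5, -0.73 to 0.61 for Blvrb, -1.02 to 0.03 for Gsr, -0.12 to 0.75 for Slc25a37 and -0.74 to 0.08 for Txn2.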
